A study of Homo sapiens with 8 samples.

Results

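Connexins and pannexins are membrane proteins that form large pores between or around cells. Connexins assemble in rings in the membrane, and rings of neighbouring cells dock to make gap junction channels that pass ions and small metabolites. Pannexins form channels that open to the outside of the cell and release ATP, and they are not known for docking into gap junctions as connexins do. In vessels, GJA1 (connexin 43), GJA4 (connexin 37) and GJA5 (connexin 40) are the connexins usually named for endothelium, GJC1 (connexin 45) is known from smooth muscle and the heart, GJB2 (connexin 26) from epithelia and the inner ear, and PANX1 is the widely expressed pannexin. These 6 genes were selected by symbol, and all 6 were found among the 23346 genes of the deposited table.

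The samples were 8 replicates of hCMEC/D3, a human endothelial line that was immortalised from brain microvessels and is cultured as a model of the blood-brain barrier. No treatment, time or genotype differed between the samples, so they formed 1 group and the design held no comparison of conditions. Polyadenylated RNA was sequenced after library preparation with the TruSeq kit. Nothing in the labels says that the replicates came from separate cultures, so the tests below measure the spread between these samples, which may be technical.

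Total counts ranged from 69388544 to 90205244 per library. All counts were even, so every 2 counts are called a read pair here, and the libraries held 34694272 to 45102622 read pairs. All 10 preset endothelial markers were read in every library at 1 CPM or more (CPM is the count relative to the TMM-scaled library size), with a summed level of 1898 to 3541 CPM. The highest were CDH5 at 649 CPM, VWF at 600.4 CPM and PECAM1 at 402 CPM on average. Among the 10, CLDN5, the claudin of endothelial tight junctions, varied beyond the trend of genes of like abundance (edgeR goodness-of-fit adjusted p = 7.36e-04), with 237 and 252 CPM in replicates 2 and 8 and 71.5 to 94.7 CPM in the other 6. ESAM, PECAM1, TIE1 and VWF were also highest in these 2 libraries. KDR (114 and 118 CPM) and TEK (65.7 and 64.1 CPM) were lowest in replicates 2 and 8, and CDH5, ERG and EMCN showed neither order. The libraries differed in how their values changed with transcript length. The slope of a library's deviations on log2 transcript length lay between 0.08 and 0.14 per doubling in replicates 1, 3, 4, 5 and 6, and was -0.21, -0.10 and -0.32 in replicates 2, 7 and 8.

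The 6 genes fell into 3 that were clearly read and 3 that were almost absent. GJA1, GJC1 and PANX1 had at least 1 CPM in all 8 libraries, which is called detected here. Among all listed genes 51.3% were detected, so 3 of 6 was close to the background. GJA4, GJA5 and GJB2 were below 1 CPM in all 8 libraries, and the highest value among them was 0.311 CPM. Since the RNA came from bulk cultures, fewer cells with a transcript and less of it per cell cannot be told apart.

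**Figure D1:**
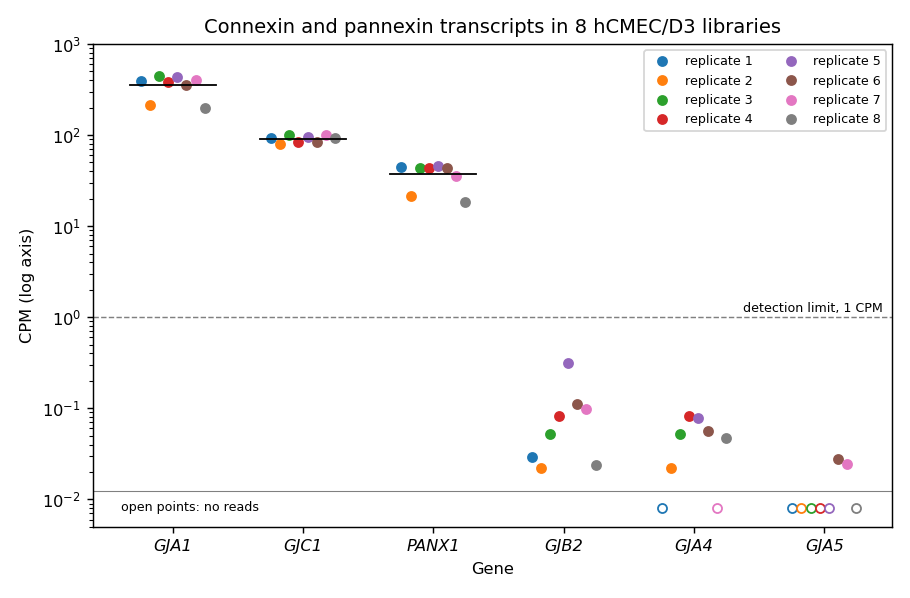
Level of each gene in each of the 8 libraries, as CPM on a log axis, with 1 colour per replicate. Bars mark the mean of the 3 detected genes, and open points below the thin line are libraries with no reads. GJA1, GJC1 and PANX1 lie above 18 CPM in every library, whereas GJB2, GJA4 and GJA5 lie below 0.4 CPM.

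GJA1 encodes connexin 43, the most widespread gap junction protein. The gene lies on chromosome 6 (GRCh37, 121756745 to 121770873, plus strand), and its canonical transcript has 2 exons, 3083 nt and a coding part of 1146 nt within 1 exon. It has a processed pseudogene, GJA1P1, on chromosome 5 (GRCh37, 108387016 to 108388158, minus strand), which was not listed in the count table. The pseudogene was identical to the GJA1 coding sequence at 1109 of 1143 aligned bases (97.0%). The opening 120 coding bases of GJA1, at chr6:121767994-121768113 on the plus strand, and the matching bases of GJA1P1, at chr5:108388039-108388158 on the minus strand, are shown because reads from such stretches could be assigned to either copy. Capitals mark the 8 positions at which they differ.
GJA1: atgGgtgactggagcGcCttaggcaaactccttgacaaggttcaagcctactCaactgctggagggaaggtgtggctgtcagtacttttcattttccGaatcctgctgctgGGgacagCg
GJA1P1: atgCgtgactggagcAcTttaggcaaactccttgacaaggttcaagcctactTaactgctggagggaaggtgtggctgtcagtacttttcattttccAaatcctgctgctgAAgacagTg
Of the 3034 windows of 50 bases in the GJA1 transcript, 195 (6.43%) occurred unchanged in GJA1P1, and of the 2984 windows of 100 bases, 47 (1.58%) did. Most of the transcript therefore differed from the pseudogene within a window of either length. How reads shared between the copies were counted is not given in the sources used here.

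GJA1 had 353 ± 94.2 CPM (SD, n = 8), or 114 ± 30.6 CPM per kb of transcript. Replicates 1 to 8 had 393, 212, 443, 379.7, 431, 359, 404 and 201 CPM. Replicates 2 and 8 were the lowest, and the other 6 libraries lay between 359 and 443 CPM. The lowest library held 8485 read pairs of GJA1.

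Astrocytes and fibroblasts also make connexin 43, so markers of other cells were read in the same libraries. None of 6 astrocyte markers was detected: AQP4, the water channel of astrocyte endfeet, had 0 reads in all libraries, GFAP had 0.476 to 0.675 CPM, and the summed level of the list was 0.820 to 1.19 CPM. Among 4 fibroblast markers only COL1A1 was detected, the list summed to 21.1 to 44.4 CPM, and DCN and LUM had means under 0.01 CPM. Of 5 microglial markers 0 were detected, and the list summed to 0.544 to 1.62 CPM.

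PANX1 encodes pannexin 1, the channel through which many cells release ATP. The gene lies on chromosome 11 (GRCh37, 93862094 to 93915137, plus strand), with 5 exons and a transcript of 2852 nt. PANX1 had 36.98 ± 11.01 CPM (SD, n = 8), or 13.0 ± 3.86 CPM per kb. In replicates 1 to 8 it had 44.2, 21.5, 43.1, 43.8, 45.9, 43.5, 35.6 and 18.3 CPM. Replicates 2 and 8 were again the lowest, replicate 7 was between them and the rest, and the other 5 libraries lay within 43.1 to 45.9 CPM.

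GJC1 encodes connexin 45, which forms channels of low conductance. The gene lies on chromosome 17 (GRCh37, 42875816 to 42908179, minus strand). Its canonical transcript has 3 exons and 7692 nt, of which 1188 nt are coding, so its level per length rests on a long untranslated part. GJC1 had 91.2 ± 7.60 CPM (SD, n = 8), or 11.9 ± 0.988 CPM per kb. Replicates 1 to 8 had 93.4, 79.0, 99.96, 84.8, 95.6, 84.5, 99.3 and 92.8 CPM. In contrast to GJA1 and PANX1, replicate 8 was close to the mean of GJC1. Of 9 mural cell markers 6 were detected. CSPG4 was the highest, at 19.3 to 45.01 CPM, followed by RGS5 at 9.44 to 19.3 CPM and PDGFRB at 7.53 to 11.8 CPM. ACTA2, CNN1 and MYH11 had means of 4.74, 2.91 and 2.66 CPM, while NOTCH3, KCNJ8 and DES had means of 0.508, 0.0272 and 0.180 CPM. The mural list summed to 51.1 to 76.3 CPM, and the part of such markers in the level of GJC1 was not tested.

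Per kb of transcript, GJA1 was the most abundant of the 6 genes in every library. It exceeded PANX1 by a log2 ratio of 3.15 ± 0.16 and GJC1 by 3.22 ± 0.40 (SD, n = 8), each in 8 of 8 libraries. Both ratios had an exact two-sided sign-flip permutation p of 0.0078, the smallest that 8 libraries allow, and an adjusted p of 0.00901 over the 15 pairs of the 6 genes. PANX1 and GJC1, the next in order, did not differ beyond their spread: the log2 ratio of GJC1 to PANX1 was -0.06 ± 0.50 and ranged from -0.48 to 0.90 (exact permutation p = 0.742, adjusted p = 0.742, n = 8). Their order turned with the scale. It was 1.37 in favour of GJC1 on CPM with no length (adjusted p = 0.00901 in the exact permutation test) and 0.35 on the authors' normalised values (adjusted p = 0.359).

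The ratio of GJA1 to PANX1 was the steadiest of the 3. It was 8.22, 9.14, 9.51, 8.02, 8.69, 7.62, 10.5 and 10.1 per kb in replicates 1 to 8, while the level of each gene varied over a wider range. The SD of this log2 ratio was 0.16, against 0.45 for GJA1 alone and 0.52 for PANX1 alone. On the authors' normalised values the ratio was hardly steadier than GJA1 itself, with an SD of 0.29 against 0.32 for GJA1 and 0.54 for PANX1. The ratio of GJA1 to GJC1 was 6.69 in replicate 2 and 5.39 in replicate 8, and 10.1 to 11.3 in the other 6. The ratio of GJC1 to PANX1 was 1.37 and 1.88 in replicates 2 and 8 and 0.717 to 1.04 in the other 6. On this scale both ratios with GJC1 set replicates 2 and 8 apart from the other 6. On the authors' normalised values replicate 7 stood apart as well: GJC1 minus PANX1 was 1.44, 0.72 and 1.99 in replicates 2, 7 and 8 and -0.42 to -0.13 in the other 5, and GJA1 minus GJC1 was 1.85, 2.56 and 1.45 in those 3 and 2.98 to 3.18 in the other 5.

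**Figure D2:**
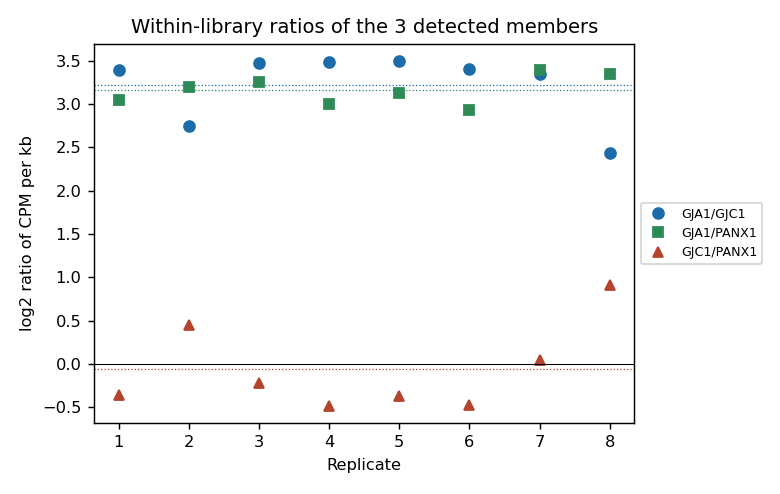
Log2 ratio of CPM per kb for the 3 pairs of detected genes in each library, with dotted lines at the means and a solid line at equality. GJA1 lies above PANX1 and GJC1 in all libraries, and the 2 ratios with GJC1 shift in replicates 2 and 8.

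Variation between replicates was compared with genes of like abundance with the goodness-of-fit test of edgeR against its dispersion trend, over 11980 detected genes. It called 558 genes (4.66%) at a Benjamini-Hochberg adjusted p under 0.05, and none of the 3 detected genes. The unadjusted p was under 0.05 for 1 of the 3, PANX1, at 0.0464, and for 13.1% of all genes. The adjusted p was 0.366 for PANX1, 0.627 for GJA1 and 1 for GJC1. In the size of their SD on the log2 scale, PANX1 ranked at the percentile 89.6, GJA1 at 82.4 and GJC1 at 11.4 of all detected genes. The call for PANX1 depended on the model: with each library's trend on length and GC content as an offset its adjusted p was 5.67e-05 (6.29% of genes called), and with the DESeq2 fitted trend it was 0.00212, and 0.0113 for GJA1 (24.8% called). Without replicates 2 and 8, chosen after their values were seen, edgeR's adjusted p was 1 for all 3 genes (2.75% called).

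The authors' normalised values, which are on a log2 scale and adjusted for the length and GC content of genes, gave another picture of GJC1. On that scale GJC1 was 6.06, 6.68, 6.16, 5.93, 6.24, 5.96, 6.73 and 7.04 in replicates 1 to 8. Replicates 2, 7 and 8 were thus the 3 highest. The share of all genes for which these libraries were highest is not given here. On CPM, replicate 2 was the lowest for GJC1, and replicates 7 and 8 lay within the range of the other 5. The SD of GJC1 rose from 0.12 on log2(CPM + 0.1) to 0.41 on the normalised scale, and from the percentile 11.4 to 92.9 of detected genes. Removing each library's trend on length and GC content from the CPM values gave an SD of 0.31. These 3 libraries are those with a negative length slope, and the GJC1 transcript (7692 nt) is longer than the median of detected genes (3351 nt).

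GJA1 and PANX1 kept their low libraries on both scales. On the normalised scale GJA1 was 8.53 and 8.49 in replicates 2 and 8 and 9.03 to 9.29 in the others. PANX1 was 5.25 and 5.05 in those 2, 6.01 in replicate 7 and 6.29 to 6.37 in the other 5. The SD went from 0.45 to 0.32 for GJA1 and from 0.52 to 0.54 for PANX1. Replicates 2 and 8 also had the lowest length slopes and the highest share of ribosomal protein counts (6.17% and 7.50%, against 3.88% to 5.72% in the others). Of the endothelial markers, CLDN5, ESAM, PECAM1, TIE1 and VWF were highest in the same 2 libraries. KDR and TEK were lowest in them, and CDH5, ERG and EMCN showed neither order. The part of these differences in the levels of GJA1 and PANX1 was not tested.

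**Figure D3:**
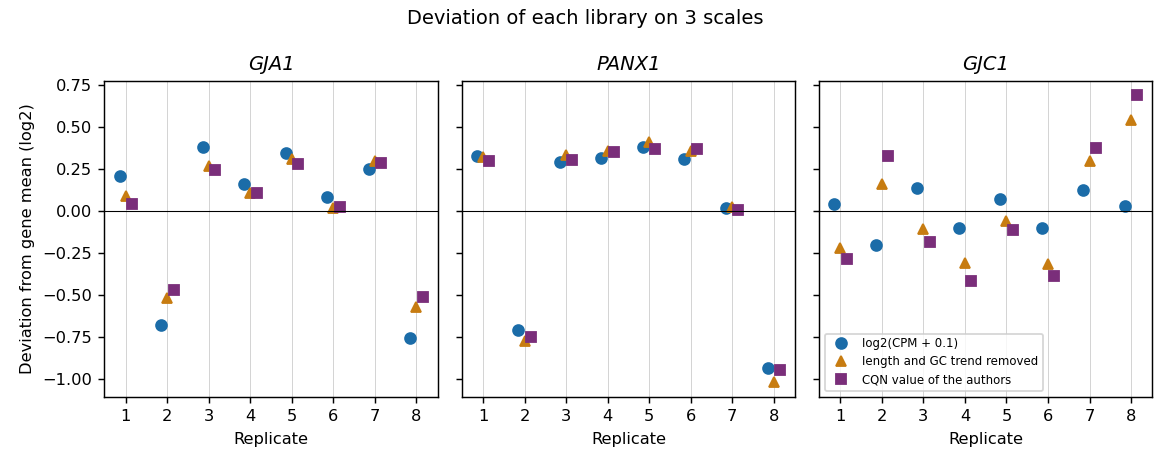
Deviation of each library from the gene's mean, in log2 units, for GJA1, PANX1 and GJC1. Circles are log2(CPM + 0.1), triangles the same after removal of each library's trend on length and GC content, and squares the authors' normalised values. The scales nearly coincide for PANX1, and for GJC1 the squares of replicates 2, 7 and 8 rise above the circles.

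**Figure D4:**
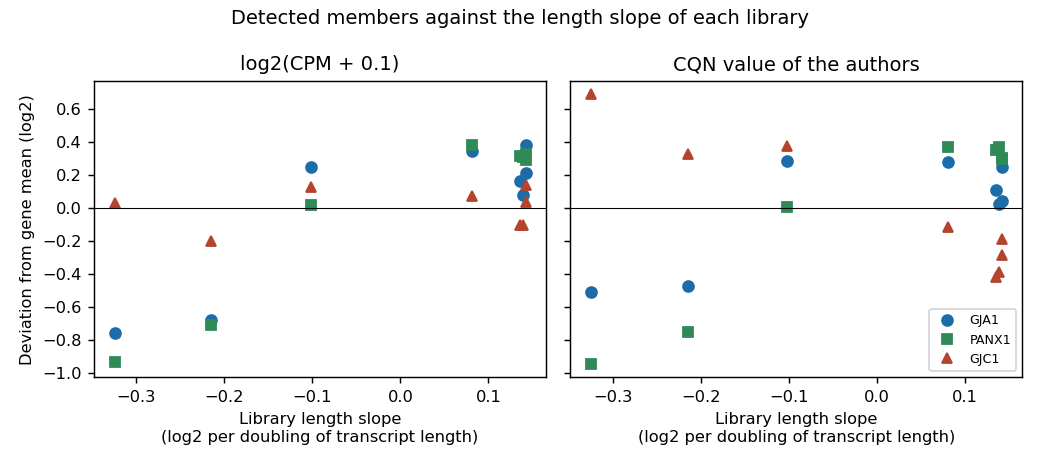
Deviation of GJA1, PANX1 and GJC1 in each library against that library's slope on transcript length, on log2(CPM + 0.1) (left) and on the authors' normalised values (right). Replicate 8 is the leftmost library, with a slope of -0.32, where GJA1 and PANX1 are lowest on both scales and GJC1 is highest on the normalised one.

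The promoter entries of RefSeq (GRCh38.p14, 250 bases before the start site) were read for the genes that were low in the same libraries. Entries were found for 4 of the 6 genes. GJA1 held the AP-1 motif TGANTCA, searched on both strands, which 6.57% of 35116 promoter entries held. The window around it, at chr6:121435587-121435616 on the plus strand, is shown with the motif in capitals, whose last base lies 42 bases before the start site.
GJA1 promoter: ctcctcccagtTGAGTCAgtggcttgaaac
The entry of PANX1 held no AP-1 motif, but it held the GC box GGGCGG, which 42.6% of entries held and that of GJA1 did not. The entry of GJB2 also held a GC box, and the 2 entries of GJA5 held neither motif. No entry of these 4 genes held TATAAA, which 10.7% of all entries held. These matches describe the sequence and are not measured binding sites.

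GJA4 and GJA5 are the connexins of arterial endothelium. GJA4 lies on chromosome 1 (GRCh37, 35258599 to 35261348, plus strand; 2 exons, 1621 nt). It had 0, 1, 2, 3, 3, 2, 0 and 2 read pairs in replicates 1 to 8. All libraries were thus at or under 3 read pairs, the number that a library with 0 reads allows, which corresponds to 0.0665 to 0.0880 CPM. Pooled over the 8 libraries, 13 read pairs of 311533107 gave 0.0417 CPM (exact 95% Poisson interval 0.0222 to 0.0714, which covers counting error only).

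GJA5 lies on chromosome 1 (GRCh37, 147228332 to 147245484, minus strand, with 2 exons and 3152 nt). Its span overlaps the listed spans of 9 other genes, and overlap of exons was not examined. It had 1 read pair in each of replicates 6 and 7 and 0 in the other 6. The pooled level was 0.00642 CPM (exact Poisson interval 0.000777 to 0.0232). Reads in exons that overlap those of another gene can be discarded as ambiguous by some counting modes. The mode is not given in the sources used here, and whether reads of GJA5 were lost in this way was not tested.

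GJB2 lies on chromosome 13 (GRCh37, 20761604 to 20767114, minus strand; 2 exons, 2290 nt). It had 1, 1, 2, 3, 12, 4, 4 and 1 read pairs in replicates 1 to 8, so replicate 5 alone held 12 of 28. The pooled level was 0.0899 CPM (exact Poisson interval 0.0597 to 0.130), and 0.0585 CPM (0.0335 to 0.0951) without replicate 5. Of 8 epithelial markers 2 were detected, KRT8 and KRT18, and KRT18 gave most of the summed 315 to 506 CPM. EPCAM, CDH1, GRHL2, KRT5, KRT14 and ESRP1 had means from 0.0190 to 0.943 CPM.

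The detected genes lay far above the others. Per kb and pooled over libraries, PANX1 exceeded GJB2 by 323-fold (95% counting interval 223 to 487) and GJA4 by 493-fold (288 to 926). GJC1 exceeded GJB2 by 301-fold (209 to 454). Without replicate 5, which held 12 of the 28 read pairs of GJB2, these folds over GJB2 rose to 477 for PANX1 (293 to 834) and 459 for GJC1 (282 to 803). Against GJA5, with only 2 read pairs, the ratio of GJC1 was 5809 with an interval of 1608 to 47966. The direction of these pairs follows from the limit that separates detected from undetected genes, so they are given with no test.

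Among the 3 undetected genes, GJA5 was lower than GJB2. The log2 ratio per kb was -1.20 ± 0.57 (SD, n = 8), below 0 in 8 of 8 libraries (exact sign-flip permutation p = 0.0078, adjusted p = 0.00901). Part of this ratio is transcript length, because the pseudocount is divided by length and GJA5 is the longer. With no length the log2 ratio was -0.73 (adjusted p = 0.00901, exact permutation). In replicates 1, 2 and 8 GJB2 had 1 read pair and GJA5 had 0, within the limit that 0 reads allow. The ratio per kb of the main setting stayed below 0 under 15 alternatives, between -2.91 and -0.57, and its size depended on the pseudocount. The -0.57 came with a pseudocount of 1, which exceeds every CPM value of both genes, so it mostly reflects their transcript lengths. The pooled interval of GJA5 also lay below that of GJB2, with or without replicate 5. The place of GJA4 was less settled: its ratio to GJB2 was 0.15 ± 0.52 (adjusted p = 0.444, exact permutation, n = 8) and turned with the pseudocount and with transcript length. The log2 ratio of GJA4 to GJA5 was 1.35 ± 0.41 per kb (adjusted p = 0.00901, exact permutation, n = 8), and 0.39 on CPM with no length (adjusted p = 0.067). The pseudocount is divided by length too, so the shorter GJA4 comes out higher even where both genes have 0 reads. This was so in replicate 1. In replicate 7, with 0 read pairs of GJA4 and 1 of GJA5, GJA4 also counted as higher. The test per kb therefore cannot order these 2 genes.

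The other family members were read in the same way. Of 14 other connexin genes considered 13 were listed, and 1 of these was detected, GJD3. GJD3, a less studied connexin, had 6.90, 11.5, 6.55, 8.29, 8.42, 6.86, 10.8 and 11.9 CPM in replicates 1 to 8, and 2.18 ± 0.539 CPM per kb (SD, n = 8). It was highest in replicates 8, 2 and 7, the libraries with a negative length slope. GJA1 was lowest in replicates 8 and 2, but not in replicate 7, where it had 404 CPM. The share of all genes that were highest in these libraries is not given here. GJD3 was not called as varying beyond the trend (edgeR adjusted p = 1).

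Among the 12 that were not detected, GJA9 had 0 reads in all libraries, and the highest means were 0.276 CPM for GJC3 and 0.187 CPM for GJA3. GJB6 (connexin 30), another connexin of astrocytes, had 0.0160 CPM. Of the pannexins, PANX2 was detected at 3.72 to 4.83 CPM (1.34 ± 0.113 CPM per kb), and PANX3 had 0 reads. A count of 0 allows up to 0.0665 to 0.0880 CPM in a library.

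Over the 18 connexins considered here, GJA1 took 87.9% ± 3.77 of the summed CPM per kb (SD, n = 8), from 80.7% in replicate 8 to 90.5% in replicate 3. GJC1 took 9.68% ± 2.58, from 8.02% in replicate 5 to 14.95% in replicate 8. Among the genes considered, the order by level per length was GJA1, PANX1, GJC1, GJD3 and PANX2, followed by those that were not detected. The spreads of PANX1 and GJC1 overlapped, and the pairs with GJD3 or PANX2 were not tested.

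**Figure D5:**
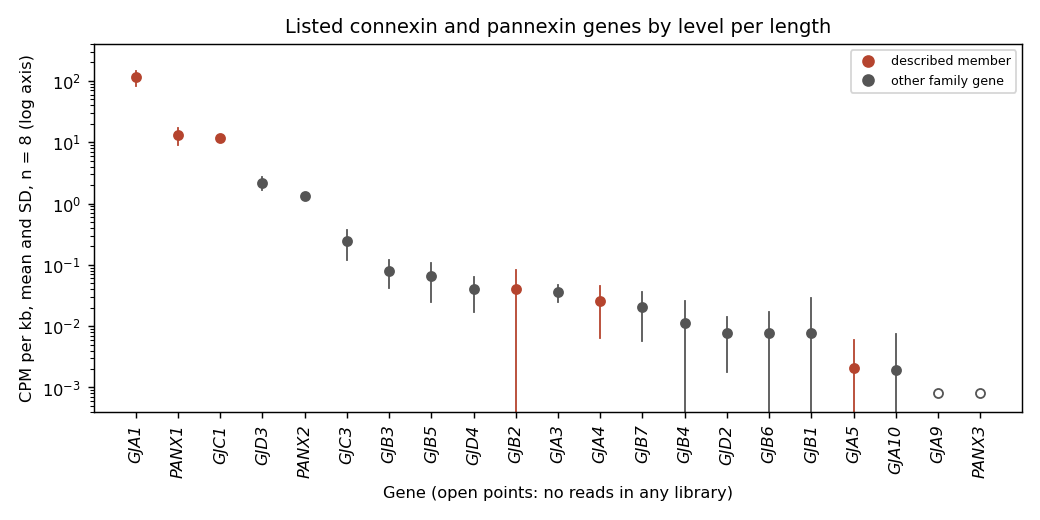
Mean CPM per kb of transcript with its SD (n = 8) on a log axis for 21 connexin and pannexin genes, ordered by mean. SD lines that would pass below the axis end there, and open points are genes with no reads. GJA1 at 114 CPM per kb stands above PANX1 and GJC1, and the 3 undetected genes described above (red) lie among the other undetected connexins.

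Genes that act on connexins or with pannexin channels were counted from 7 lists, the other connexins and pannexins included. Of the 75 genes considered 74 were listed and 50 were detected. Of these 50, 2 varied beyond the trend, beside 4.66% of all detected genes. Among all listed genes 51.3% were detected, which is the background for the detected counts of each list as well. The median level over the 74 was 23.7 CPM, and 1.97 CPM over all genes. Of 16 scaffold and turnover genes 14 were detected and 0 varied beyond the trend. The highest were CAV1, which coats caveolae, at 774 ± 48.7 CPM, CTNNB1, the catenin of adherens junctions and Wnt signalling, at 431 ± 53.2 CPM and DBN1, an actin-binding protein that links connexin 43 to the cytoskeleton, at 231 ± 46.2 CPM (SD, n = 8). TJP3 and NOV, the gene of the matricellular protein CCN3, were not detected (0.126 and 0.246 CPM).

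All 11 kinases considered from the connexin list were detected, and 0 varied beyond the trend. The highest by CPM were CDK1 (235 ± 13.6 CPM), CSNK1D (177 ± 22.1 CPM) and CSNK1E (132 ± 24.6 CPM). CDK1 and CSNK1D are known to phosphorylate connexin 43. All 5 LRRC8 genes, whose products form volume-regulated anion channels related to pannexins, were detected, led by LRRC8A at 275 ± 14.6 CPM and LRRC8C at 104 ± 28.99 CPM, with LRRC8D at 31.8 ± 3.70 CPM. None of the 5 varied beyond the trend.

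In the list of ATP and adenosine signalling genes, 9 of 15 were detected and 1, P2RX7, varied beyond the trend (edgeR adjusted p = 4.91e-04). P2RX7 is an ATP-gated channel that is often studied together with pannexin 1. Replicates 1 to 8 had 7.42, 2.46, 5.95, 6.66, 3.86, 6.36, 2.24 and 1.35 CPM. It was lowest in replicates 8, 7 and 2, the libraries with a negative length slope. The share of all genes that were lowest in these libraries is not given here. The highest genes of the list were NT5E, the enzyme that makes adenosine from AMP, at 204 ± 45.98 CPM, the ATP-gated channel P2RX4 at 44.04 ± 8.61 CPM, and ENTPD1, which breaks down extracellular ATP, at 25.9 ± 3.18 CPM. P2RY12, P2RX1, P2RX6, P2RY1, P2RY6 and ADORA1 were not detected. Of these, ADORA1 was close to the limit, with 0.799 to 2.08 CPM and a mean of 1.44 CPM. P2RY12 had 0 reads, and the highest mean among the rest was 0.129 CPM, for P2RY1.

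The list of arterial and flow-responsive genes was read because GJA4 and GJA5 mark arterial endothelium. Of its 12 genes 9 were detected, among them NR2F2, a venous factor, at 139.8 ± 15.6 CPM, NOTCH1 at 109 ± 9.61 CPM and NOTCH4 at 76.3 ± 13.2 CPM. KLF4, a flow-induced factor, was the only gene of this list beyond the trend (edgeR adjusted p = 0.0263), with 11.4 CPM in replicate 8 and 20.4 CPM in replicate 2 against 33.1 to 52.4 CPM in the others. HEY1, HEY2 and FOXC1 missed the limit in at least 1 library, and their means were 1.07, 1.23 and 0.739 CPM.

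The genes whose profile over the 8 libraries was most like that of each detected gene were sought on the authors' normalised values, by the root-mean-square difference of centred profiles among 11979 genes. For GJA1 they were FRMD6 (0.05, log2), AXL (0.06) and SGMS2 (0.06). For PANX1 they were RNF24 (0.05), LATS2 (0.07) and DAAM1 (0.08). For GJC1 they were LOC220906, LSM5 and PDLIM2 (each 0.06). The same measure was 0.27 between GJA1 and PANX1, 0.61 between GJA1 and GJC1 and 0.86 between GJC1 and PANX1. On log2(CPM + 0.1) it was smaller for the same pairs, at 0.15, 0.38 and 0.47. The nearest genes were not sought on that scale. The likeness is a description over 8 libraries of 1 group.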

How the data were processed

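The authors deposited 1 table with raw counts per gene and CQN-normalised log2 values for each library, per the file headers; the log2 scale was judged from the values. CASAVA 1.9, TopHat2 2.0.6, HTSeq and the build hg19 are named in the submitters' processing notes; annotation, strand use and CQN settings are not given in the sources used here. All 16 value columns were matched to samples by title, and 0 others were present. CQN values were deposited for 13962 genes, among them GJA1, GJC1 and PANX1.

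CPM used the counts with TMM scaling (edgeR 4.0.16, R 4.3.3). Lengths came from GENCODE 44 on GRCh37 for 19467 genes matched by symbol and 1989 by synonym. Starts in the table were taken as counted from 0, because the GENCODE start was 1 higher for 5734 genes matched by symbol and equal for 652; other starts differed more. Gene coordinates are the table's, with 1 added to the start. Pairs were tested on log2 of (CPM + 0.1) per kb by exact sign-flip permutation over 256 patterns. Variation used edgeR's goodness-of-fit test, with DESeq2 1.42.0 as an alternative. On simulated data for this test (11980 genes), 86.5% of 200 genes raised 4-fold in 1 library were called, and 0 with none changed. This setting differs from that of GJA1 and PANX1, which were lower in replicates 2 and 8. It therefore gives no recovery rate for such a pattern.

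All 6 genes and the lists were chosen with earlier results of these data known. A few genes of the lists are not reported here and were left out of the counts. Besides the 6 genes, the text names the 3 highest genes of each of the 7 gene lists by CPM, those beyond the variation trend, detected family genes, the 3 nearest profiles and genes that were not detected. Cell type markers are given by counts and sums, and those named were chosen after their values were seen. Alternative scalings, pseudocounts, filters, lengths, dispersion trends and left-out libraries were tried.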

Additional observations from a re-analysis of the deposited data

Results flagged for a closer look

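In 1 of 14 sets of 8 library values, the most extreme library lay apart from the rest by more than Dixon's 95% critical value, and chance flags about 1 in 20 such sets. Replicate 5 had 0.311 CPM of GJB2, where the next highest library had 0.112 CPM, a gap of 0.689 of the range, which rests on 12 read pairs.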

How the results depend on the processing

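The number of detected genes stayed at 3 of 6 under all 5 other filters and scalings. Mean levels moved by less than 1 SD under the scalings and without any library or without replicates 2, 7 and 8; without those 3, GJA1 had 401 CPM, PANX1 44.1 CPM and GJC1 91.6 CPM. The ratios of GJA1 to PANX1 (3.01 to 3.27, log2) and to GJC1 (1.899 to 3.43) kept their direction and an adjusted p under 0.05 in the exact permutation test under all 16 alternatives, 1 of which was chosen after seeing the data. For every pair, DESeq2 size factors and removal of the length and GC trend leave the mean within-library ratio all but unchanged by construction. These alternatives could therefore not turn a ratio. The ratio of GJC1 to PANX1 turned to 1.37 on CPM with no length and to 0.35 on the authors' values, and its value depends on the transcript length taken for GJC1. Among undetected genes, GJA4 to GJB2 turned from 0.15 to -0.43 with a pseudocount of 0.01. It turned to -0.34 with no length and to -0.0023 without replicates 2 and 8. With a pseudocount of 1 it was 0.44 (adjusted p = 0.00837, exact permutation). That pseudocount exceeds every CPM value of both genes, so this ratio mostly reflects their transcript lengths. GJA4 to GJA5 went from 1.35 to 0.39 with no length (adjusted p = 0.067, exact permutation). The number of genes beyond the variation trend was 2967 with the DESeq2 fitted trend, 335 without replicates 2 and 8 and 381 to 491 without 1 library; the cause was not tested. No paired analysis was possible because the samples form 1 group. Depth limits the values of the undetected genes.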
